A study of Astyanax mexicanus with 18 samples.

Results

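The comparison described here is the difference between the liver's response to a meal in Pachón cavefish and its response in surface fish of Astyanax mexicanus. It draws on all 12 RNA-seq libraries among the 18 samples of the series, and for each gene takes refed minus starved Pachón cavefish less refed minus starved surface fish. Surface fish are the eyed river form of the species, and Pachón cavefish are a blind population from a cave where food is scarce. The 4 groups were starved surface fish, refed surface fish, starved Pachón cavefish and refed Pachón cavefish, with 3 libraries each. All fish were 4 months old, had no stated genetic or drug treatment, and were raised in the laboratory at the same temperature. Every fish went without food for 4 days. Refed fish then ate 10 mg of a commercial feed and were dissected 3 hours later, while starved fish were not given that meal. Fish of both populations had been accustomed to fixed rations beforehand. The other 6 samples are ChIP-seq libraries and were not analysed here. The labels do not tie a library to a clutch or tank, so p-values measure only the spread between these libraries.

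During a fast the liver exports glucose and oxidises fatty acids, and after a meal insulin and nutrients turn it towards glycogen and fat synthesis. Growth signalling through the kinase mTOR at the same time raises the production of ribosomes, which begins in the nucleolus with the transcription of ribosomal RNA. Mitochondria import most of their proteins from the cytosol but make a few on ribosomes of their own, and they supply the citrate from which cytosolic fatty acids are built. Pachón cavefish are known for large fat stores, resistance to starvation and a reduced response to insulin.

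Levels are TPM (each transcript's share of a library, corrected for gene length) as the authors deposited them. They hold no read numbers, so the depth behind each value is unknown. Differences are on the log2(TPM + 1) scale with the standard error of a limma fit, which understates changes of low genes. A value of 1 means that the refed to starved ratio of TPM + 1 in Pachón cavefish was 2-fold that in surface fish. A positive difference can come from a stronger rise, a weaker fall or opposite directions. For part of the named genes the 2 responses or the levels behind them are given beside it. A gene counts as called where the adjusted p is under 0.05. The adjustment runs over 13157 tested genes, those that reached 1 TPM in 3 or more libraries, out of 27420 listed. Hepatocyte markers summed to between 114966 and 286012 TPM per library. Starved surface replicate 2 stood apart. It had the lowest hepatocyte sum, where the other 11 libraries had at least 198400 TPM, and 4323 TPM of egg proteins made by the liver (vitellogenins), against at most 49.9 TPM elsewhere. Across genes, which do not count as replicates, starved surface libraries correlated with each other at a Pearson r of 0.9 to 0.938, and libraries of each other group at 0.924 or more.

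Few genes passed the test for a difference in response. It called 8 genes with a more positive response in Pachón cavefish (0.0608% of those tested) and 1 with a more negative one (0.0076%). No called gene kept its call under all the alternatives in which it could be tested: each call stood in 6 to 16 of the 20 to 25 alternatives that could test the gene. With any of 5 single libraries left out, limma called 0 genes, with 1629 to 1729 genes at an unadjusted p under 0.05. These were Pachón refed replicates 1 and 2, Pachón starved replicates 1 and 3, and surface refed replicate 2. Leaving out Pachón refed replicate 3 or starved surface replicate 3 gave 2 calls, and leaving out starved Pachón replicate 2 gave 4. Leaving out starved surface replicate 1 gave 52 calls, and leaving out refed surface replicate 1 gave 15. Without starved surface replicate 2, the library that stood apart, 5 genes were called. Calls of the difference are therefore given below with their values in every library.

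The direction of the differences depended on how libraries were scaled. An unadjusted p under 0.05 was reached by 14.2% of tested genes with a more positive and by 2.31% with a more negative response in Pachón cavefish, and the median difference over all genes was 0.29. When each library was rescaled by its median ratio to the others (median-of-ratios scaling), these shares were 6.21% and 5.69% and the median difference was 0.03. Under that scaling 13 genes were called, 6 more positive and 7 more negative. Of the 9 genes called on the deposited scale, 7 were among them. A more positive difference below 0.29 is thus no larger than that of the median gene.

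The meal changed more genes in Pachón cavefish than in surface fish, and genes that passed in both populations nearly always moved the same way. In surface fish 1188 genes rose (9.03%) and 1273 fell (9.68%), and in Pachón cavefish 3019 rose (22.9%) and 1005 fell (7.64%). Both populations passed the threshold for 1565 genes, of which 1012 rose in both, 546 fell in both and 7 moved in opposite directions. Another 2000 genes rose and 459 fell past the threshold in Pachón cavefish alone, and 176 rose and 720 fell in surface fish alone. Passing in 1 population alone does not show a difference, which was called for 9 genes. With median-of-ratios scaling the genes that rose in Pachón cavefish alone numbered 1112 and those that fell in them alone 1001, so rises exceeded falls by less on that scale.

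**Figure D1:**
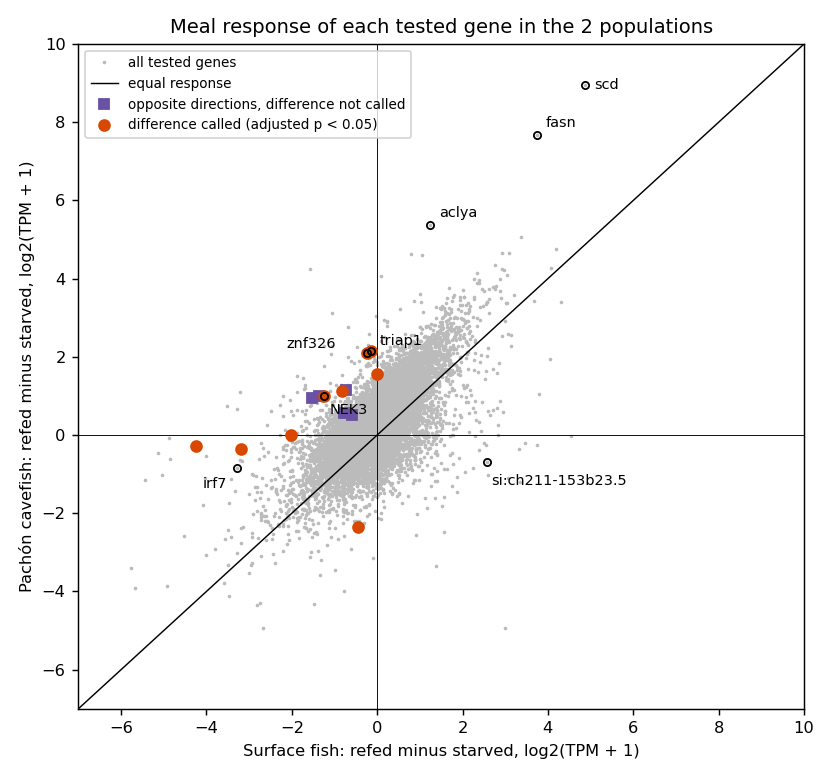
Each grey point is 1 of the 13157 tested genes, placed by its refed minus starved difference on the log2(TPM + 1) scale in surface fish (horizontal) and Pachón cavefish (vertical), and the diagonal line marks equal responses. Orange points are the 9 genes with a called difference, purple squares are genes called in opposite directions whose difference was not called, and open circles mark genes named on the plot. The cloud runs along the diagonal, and 8 of the 9 called genes lie above it.

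NEK3, a serine/threonine kinase of the NIMA-related family, fell after the meal in surface fish and rose in Pachón cavefish. Its levels were 2.25, 2.06 and 2.08 TPM in starved and 0.34, 0.37 and 0.23 TPM in refed surface fish, and 1.77, 2.14 and 2.74 TPM in starved and 4.72, 7.18 and 4.56 TPM in refed Pachón cavefish. The starved groups overlapped and the refed groups did not. The fitted response of surface fish was -1.25 ± 0.18 (limma adjusted p = 0.00163) and that of Pachón cavefish 1.00 ± 0.18 (limma adjusted p = 0.00204). These differ by 2.25 ± 0.26 (limma adjusted p = 0.0346), with a 95% interval of 1.68 to 2.83. With median-of-ratios scaling it was called too (limma adjusted p = 0.0491), and no other gene with a symbol and a group mean of 5 TPM or more was called on both scales. The rule that named NEK3 used the p of this same difference, so its low p is no separate support. All other genes named here were likewise chosen after their values were seen.

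The other 2 called genes that have a symbol rose in Pachón cavefish without a call in surface fish. The gene triap1 encodes a small protein that helps carry phosphatidic acid across the mitochondrial intermembrane space. Its levels were 9.27, 12.4 and 15.1 TPM in starved and 12.9, 9.24 and 10.7 TPM in refed surface fish, and 4.62, 6.12 and 4.34 TPM in starved and 32.6, 21.7 and 24.1 TPM in refed Pachón cavefish. Starved Pachón libraries lay below every surface library and refed Pachón libraries above every one of them. The triap1 difference was 2.30 ± 0.33 (limma adjusted p = 0.0371; 0.0822 with median-of-ratios scaling). The gene znf326 encodes a zinc finger protein that, in human cells, belongs to a complex linking RNA polymerase II to splicing. Its levels were 0.040, 0.82 and 0.12 TPM in starved and 0.060, 0.030 and 0.21 TPM in refed surface fish, and 0.38, 0.18 and 0.12 TPM in starved and 5.47, 3.29 and 4.04 TPM in refed Pachón cavefish. Only the refed Pachón libraries exceeded 1 TPM, so znf326 passed the filter on low values through that group alone. The znf326 difference was 2.31 ± 0.33 (limma adjusted p = 0.0371).

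The other 6 called genes carry no symbol in the deposited table. ENSAMXG00000039180 was detected mainly in starved surface fish, with 43.5, 11 and 17.1 TPM there. It had 0, 0.050 and 0.35 TPM in refed surface fish and 0.13, 0.19 and 0.31 TPM in starved Pachón cavefish, and was listed at 0 in all refed Pachón libraries. Its surface response was -4.25 ± 0.37 (limma adjusted p = 0.000281) and its difference 3.97 ± 0.52 (limma adjusted p = 0.0371), the largest among the called genes, while Pachón libraries were below 1 TPM in both states. ENSAMXG00000043828 was listed at 0 in all 6 surface libraries and had 1.9, 2.43 and 1.98 TPM in starved and 6.83, 9.06 and 8.45 TPM in refed Pachón cavefish. It can therefore be described only within Pachón cavefish, where it rose by 1.55 ± 0.15 on the log2 scale (limma adjusted p = 0.00012), and its called difference was 1.55 ± 0.21 (limma adjusted p = 0.0371). ENSAMXG00000035399, the called gene with the more negative response, had 4.22, 4.39 and 3.75 TPM in starved and was listed at 0 in all refed Pachón libraries. In surface fish it had 0.58, 0.58 and 0 TPM when starved and was listed at 0 when refed, and its difference was -1.91 ± 0.26 (limma adjusted p = 0.0371).

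Of the last 3, each without a symbol, a gene with 8.84, 18.2 and 19.5 TPM in starved surface fish fell to 0.60, 1.06 and 0.57 TPM in refed surface fish. It had 2.26, 3.5 and 2.42 TPM in starved and 1.1, 2.5 and 2.19 TPM in refed Pachón cavefish, and its difference was 2.82 ± 0.42 (limma adjusted p = 0.0434). Another was listed at 0 in every library but those of starved surface fish, which had 4.8, 2.51 and 2.22 TPM, so it has no Pachón response to compare. Its difference, 2.01 ± 0.29 (limma adjusted p = 0.0371), is the surface response of -2.01 ± 0.20 with the sign turned. The remaining one fell in surface fish from 0.91, 1.59 and 1.19 to 0.59, 0.040 and 0.18 TPM and rose in Pachón cavefish from 0.030, 0.040 and 0.090 to 1.36, 1.21 and 1.39 TPM, with a difference of 1.96 ± 0.26 (limma adjusted p = 0.0371). Of the 9 called genes, ENSAMXG00000043828 was listed at 0 in every surface library and the gene with the difference of 2.01 ± 0.29 in every Pachón library, and ENSAMXG00000039180 had at most 0.31 TPM in any Pachón library. These 3 passed the filter on low values through 1 population, and their called differences restate the response of that population. In ENSAMXG00000035399 the surface libraries had at most 0.58 TPM, and in znf326 at most 0.82 TPM. Both passed the filter through Pachón libraries alone, starved ones for ENSAMXG00000035399 and refed ones for znf326. In 5 of the 6 genes without a symbol at least 1 group was at 0 or below 1 TPM in all of its libraries. A listed 0 can also be a failed estimate.

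**Figure D2:**
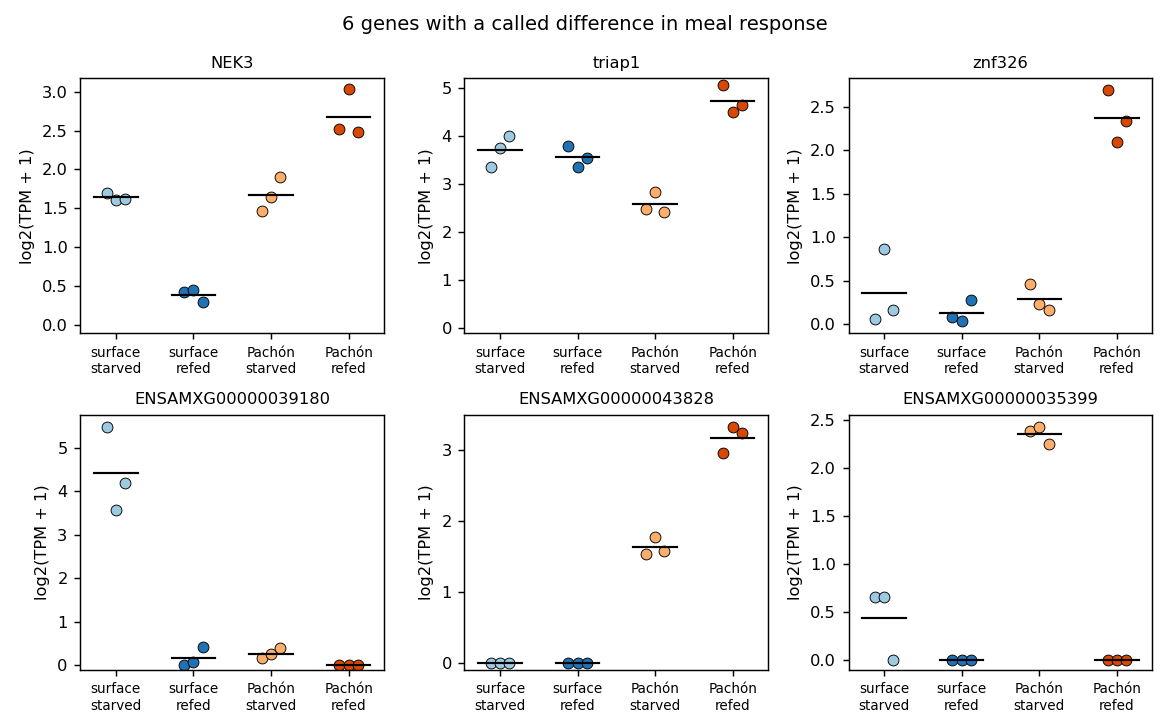
Level of 6 of the 9 called genes on the log2(TPM + 1) scale (vertical) in the 3 libraries of each group (points), with the group mean as a bar. NEK3 moved in opposite directions in the 2 populations, triap1 and znf326 were highest in refed Pachón cavefish, and the 3 genes without a symbol were at or near 0 in 2 or 3 of the groups.

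The meal moved 7 genes in opposite directions, past the threshold in each population, and all 7 fell in surface fish and rose in Pachón cavefish. NEK3 and 1 gene without a symbol were among them and have called differences. The phosphatase dusp12 had 1.24, 2.73 and 1.83 TPM in starved and 0.64, 0.79 and 0.80 TPM in refed surface fish, and 1.8, 1.35 and 1.01 TPM in starved and 5.87, 3.54 and 3.71 TPM in refed Pachón cavefish, with a difference of 1.88 ± 0.32 (limma adjusted p = 0.0809). The gene wash1, whose product starts actin branches on endosomes, fell in surface fish, with a response of -1.37 ± 0.29, and rose in Pachón cavefish, with one of 0.99 ± 0.29. For wash1 the mean levels were 6.64 TPM in starved and 1.96 TPM in refed surface fish, and 4.46 TPM in starved and 10.5 TPM in refed Pachón cavefish. The deubiquitinase bap1, which acts on histone H2A, had responses of -0.58 ± 0.15 and 0.51 ± 0.15, with starved and refed means of 3.78 and 2.19 TPM in surface fish and 2.01 and 3.31 TPM in Pachón cavefish. The difference did not pass for wash1 (limma adjusted p = 0.0809) or bap1 (limma adjusted p = 0.093). With median-of-ratios scaling 5 genes moved in opposite directions, 3 of them falling in surface fish and 2 falling in Pachón cavefish.

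The threshold separated genes of similar differences. Just inside it were triap1 and a gene without a symbol, at adjusted p of 0.0371 and 0.0434. Just outside, 15 genes shared an adjusted p of 0.0809, and the 2 with the lowest unadjusted p were the carriers slc25a26 and slc25a12. The carrier slc25a26 brings S-adenosylmethionine into mitochondria and had 4.94, 4.94 and 6.67 TPM in starved and 5.02, 2.53 and 2.55 TPM in refed surface fish, and 1.69, 3.56 and 1.61 TPM in starved and 14.9, 8.91 and 9.55 TPM in refed Pachón cavefish, with a difference of 2.51 ± 0.42. The carrier slc25a12 exchanges aspartate for glutamate and had 1.78, 3.31 and 3.34 TPM in starved and 3.09, 2.81 and 2.67 TPM in refed surface fish, and 2.16, 1.6 and 1.45 TPM in starved and 7.52, 12.8 and 9.6 TPM in refed Pachón cavefish, with a difference of 1.94 ± 0.32. For both carriers each refed Pachón library lay above all 9 others, and their rises in Pachón cavefish passed the test (limma adjusted p = 0.000776 and 0.000213).

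Functions were described with 40 gene lists of 13 to 97 tested members. None of them had a member with a called difference. The counts that follow are therefore of members at an unadjusted p under 0.05, to be read against the 14.2% and 2.31% of all tested genes, or 6.21% and 5.69% with median-of-ratios scaling. By this measure 18 of the 40 lists had a larger share of more positive members than all genes. The shares were highest for ribosome biogenesis (58.2%), mitochondrial protein import (58.0%), aminoacyl-tRNA synthetases (51.4%) and mitochondrial ribosomal proteins (50.0%). With median-of-ratios scaling these shares were 18.7%, 32.0%, 25.7% and 20.6%. Pyruvate dehydrogenase (23.1%) and fatty acid synthesis (20%) then also lay above ribosome biogenesis, so the order depended on the scaling. The highest list median was that of fatty acid synthesis. Some counts below are also given without starved surface replicate 2, and for these the shares of all genes by direction are not given. In that fit 1729 of 12946 tested genes had an unadjusted p under 0.05 in either direction, against 2176 of 13157 with all libraries. Its median difference over all genes was 0.22.

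**Figure D3:**
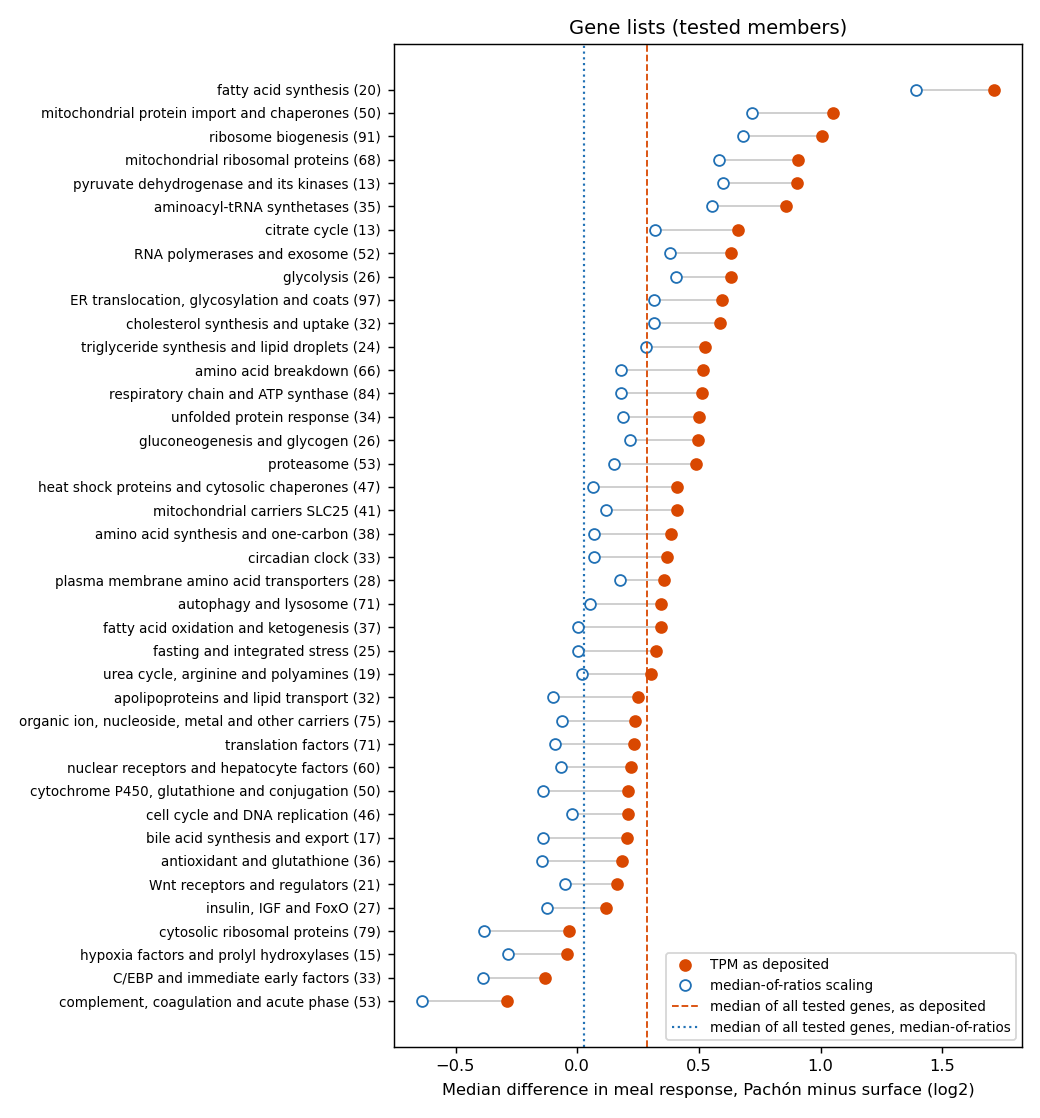
Median difference in meal response (horizontal, log2, Pachón cavefish minus surface fish) of the tested members of 40 gene lists, with their number in brackets. Filled points use TPM as deposited and open points median-of-ratios scaling, and the vertical lines are the medians of all tested genes on each scale, 0.29 and 0.03. The top 6 lists, led by fatty acid synthesis, lie to the right of both lines on both scales, and the complement list is lowest on both with all libraries.

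Ribosome biogenesis, the nucleolar processing and assembly of ribosomes, held many genes that rose after the meal in both populations, with a median response of 1.06 in surface fish and 2.04 in Pachón cavefish. All 91 listed members were tested. In surface fish 53 rose and 1 fell past the threshold, and in Pachón cavefish 85 rose and 0 fell. The shares of all genes, for these and the later counts of responses, are 9.03% that rose and 9.68% that fell in surface fish, and 22.9% that rose and 7.64% that fell in Pachón cavefish. The median difference was 1.01, and 53 members had a more positive and 0 a more negative response at an unadjusted p under 0.05. With median-of-ratios scaling the counts were 17 and 0 and the median 0.68, and without starved surface replicate 2 they were 33 and 0. The mean log2(TPM + 1) over the members was 3.05, 3.40 and 3.31 in starved and 4.61, 3.80 and 4.41 in refed surface libraries, and 2.50, 2.76 and 3.08 in starved and 5.08, 4.73 and 4.51 in refed Pachón libraries. Starved Pachón libraries overlapped starved surface libraries at 1 point, and refed Pachón libraries overlapped the refed surface ones. The median Pachón minus surface difference in level over the members was -0.46 among starved and 0.50 among refed fish on the log2 scale, against -0.13 and 0.18 over all genes.

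Among single members, utp6, a part of the complex that processes the small ribosomal subunit, had 5.89, 5.81 and 6.2 TPM in starved and 15.2, 10.8 and 14.9 TPM in refed surface fish, and 1.62, 2.83 and 3.43 TPM in starved and 25, 23.4 and 19 TPM in refed Pachón cavefish. It rose in both populations, by 1.06 ± 0.23 and 2.72 ± 0.23, and the difference was 1.66 ± 0.32 (limma adjusted p = 0.093). Starved Pachón libraries were the lowest and refed Pachón libraries the highest of all 12. The nucleolar GTPase gnl2, needed for the large subunit, had 15.2, 16.5 and 15.8 TPM in starved and 38.9, 20 and 29.1 TPM in refed surface fish, and 5.33, 7.21 and 9.8 TPM in starved and 56.6, 50 and 38.3 TPM in refed Pachón cavefish. Its starved Pachón libraries were again the lowest, while 1 refed surface library reached the range of the refed Pachón ones, and it had a difference of 1.76 ± 0.39 (limma adjusted p = 0.128). The assembly factor nop16 followed with a difference of 1.23 ± 0.33 (limma adjusted p = 0.161), from means of 31.5 to 36.1 TPM in surface fish and 23.9 to 64.5 TPM in Pachón cavefish.

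The enzymes that transcribe and decay RNA and those that charge tRNA also had more members with a positive difference than all genes. Of 52 tested subunits of RNA polymerases and the exosome, 18 had a more positive and 0 a more negative response (8 and 1 with median-of-ratios scaling), with a median of 0.63. They included polr1e of RNA polymerase I (1.03 ± 0.28, limma adjusted p = 0.166) and polr1c, shared by RNA polymerases I and III (1.78 ± 0.53, limma adjusted p = 0.182). Of 35 aminoacyl-tRNA synthetases and their partners, 18 had a more positive and 0 a more negative response (9 and 0 with median-of-ratios scaling), with a median of 0.86. Past the threshold of their own responses, 13 rose and 1 fell in surface fish and 24 rose and 0 fell in Pachón cavefish.

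The route to a positive difference was not the same for each synthetase. The scaffold aimp1 had 38.7, 31.2 and 29.8 TPM in starved and 40.5, 28 and 34.2 TPM in refed surface fish, and 14, 25.6 and 19.2 TPM in starved and 59.9, 47.7 and 49.5 TPM in refed Pachón cavefish, a rise in Pachón cavefish (limma adjusted p = 0.00153) beside a surface response of 0.04 ± 0.25. The mitochondrial alanyl-tRNA synthetase aars2 rose in both, by 1.99 ± 0.20 in surface fish and 2.98 ± 0.20 in Pachón cavefish. The mitochondrial phenylalanyl-tRNA synthetase fars2 had 9.15, 8.44 and 5.78 TPM in starved and 3.24, 2.02 and 2.17 TPM in refed surface fish, and 1.79, 3.02 and 2.21 TPM in starved and 3.0, 1.34 and 2.77 TPM in refed Pachón cavefish, a fall in surface fish with a response of -1.33 ± 0.26 (limma adjusted p = 0.00591) and a Pachón response of -0.01 ± 0.26. The differences were 1.37 ± 0.35 for aimp1, 0.99 ± 0.29 for aars2 and 1.32 ± 0.36 for fars2, with limma adjusted p of 0.156, 0.174 and 0.166.

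Ribosomal proteins of the cytosol were below the share of all genes. Of 79 tested members 1 had a more positive and 0 a more negative response at an unadjusted p under 0.05, and the median difference was -0.03, below that of all genes. With median-of-ratios scaling the counts were 0 and 2 and the median -0.38. In each population 1 member rose and 0 fell past the threshold. Translation factors lay between, with 14 of 71 members more positive and 0 more negative (5 and 2 with median-of-ratios scaling). Among them were eif3jb (1.05 ± 0.34, limma adjusted p = 0.197), part of the initiation factor that binds the small subunit, and eif4g1a (1.12 ± 0.38, limma adjusted p = 0.204), the scaffold of cap binding.

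**Figure D4:**
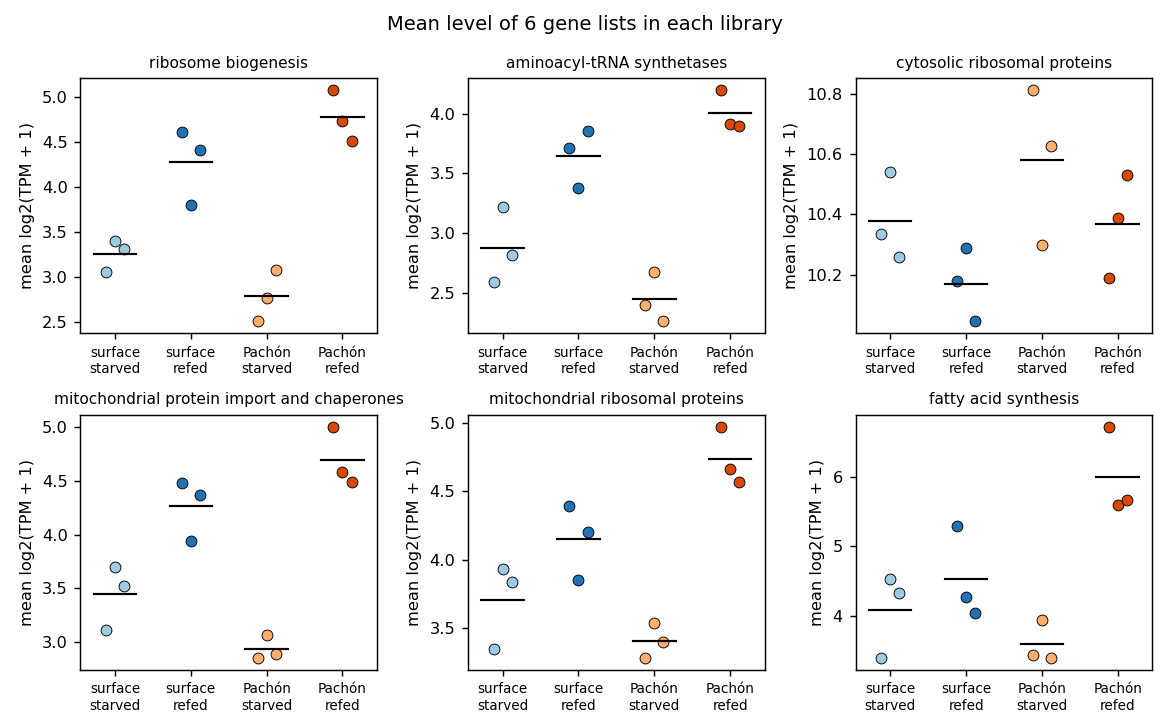
Mean log2(TPM + 1) over the tested members of 6 gene lists (vertical) in each of the 3 libraries of each group (points), with the group mean as a bar. The vertical axes differ between panels and do not start at 0. Refed Pachón libraries are highest and starved Pachón libraries lowest on average in every list but that of cytosolic ribosomal proteins, where the group means span less than 0.5.

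Mitochondrial protein import and the mitochondrial ribosome stood beside ribosome biogenesis. Of 50 translocase subunits, import motors and mitochondrial chaperones, 29 had a more positive and 0 a more negative response at an unadjusted p under 0.05 (16 and 0 with median-of-ratios scaling, 21 and 0 without starved surface replicate 2), with a median of 1.05. Past the threshold 21 rose and 0 fell in surface fish, and 42 rose and 0 fell in Pachón cavefish. The mean log2(TPM + 1) over these members was 3.12, 3.70 and 3.52 in starved and 4.48, 3.94 and 4.37 in refed surface libraries, and 2.85, 3.07 and 2.89 in starved and 5.01, 4.58 and 4.49 in refed Pachón libraries. All starved Pachón libraries lay below the starved surface libraries, and the refed Pachón libraries lay above the refed surface ones, by a narrow margin for the nearest pair.

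Of 68 mitochondrial ribosomal proteins, 34 had a more positive and 0 a more negative response (14 and 1 with median-of-ratios scaling, 25 and 0 without starved surface replicate 2), with a median of 0.91. In surface fish 14 rose and 1 fell, against 56 and 0 in Pachón cavefish. The mean log2(TPM + 1) over them was 3.34, 3.93 and 3.83 in starved and 4.40, 3.85 and 4.20 in refed surface libraries, and 3.28, 3.54 and 3.39 in starved and 4.97, 4.66 and 4.56 in refed Pachón libraries. Refed Pachón libraries lay above all others, while the starved groups overlapped.

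Named members illustrate these counts. The mitochondrial Hsp40 chaperone dnaja3a had 4.93, 4.57 and 5.42 TPM in starved and 7.36, 6.06 and 7.45 TPM in refed surface fish, and 2.09, 3.03 and 2.64 TPM in starved and 16.2, 9.17 and 10.2 TPM in refed Pachón cavefish, a difference of 1.40 ± 0.30 (limma adjusted p = 0.122). The import motor protein dnajc15 and the outer-membrane protein mtx2 had differences of 1.31 ± 0.35 and 0.96 ± 0.26 (limma adjusted p = 0.162 and 0.161). Each of the 3 rose in Pachón cavefish, and none passed in surface fish. The small-subunit protein mrps21 had 57.6, 87.8 and 86.8 TPM in starved and 84, 75.2 and 86.5 TPM in refed surface fish, and 29.7, 52.7 and 33 TPM in starved and 155, 109.6 and 127 TPM in refed Pachón cavefish, a difference of 1.67 ± 0.38 (limma adjusted p = 0.13). Its surface groups overlapped and its Pachón groups did not. The small-subunit protein ptcd3 had a difference of 1.34 ± 0.32 and the large-subunit protein mrpl1 one of 1.08 ± 0.28 (limma adjusted p = 0.138 and 0.16).

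The respiratory chain had a smaller share. Of 84 subunits 24 had a more positive and 1 a more negative response, with a median of 0.51. More positive members made up 28.6%, against 14.2% of all genes. With median-of-ratios scaling the counts were 6 and 1, against 6.21% and 5.69% of all genes. The more positive share was then 7.14%, near that of all genes. Without starved surface replicate 2 the counts were 10 and 1 of 84. In that fit 1729 of 12946 tested genes had such a p in either direction. The cytochrome c oxidase subunits cox7a2a and cox8a had differences of 1.46 ± 0.33 and 1.51 ± 0.39 (limma adjusted p = 0.132 and 0.16). For cox8a the levels were 285, 503 and 302 TPM in starved and 266, 211 and 252 TPM in refed surface fish, and 151, 269.9 and 228 TPM in starved and 465, 390.5 and 389 TPM in refed Pachón cavefish. The succinate dehydrogenase subunit sdhdb had a difference of 1.21 ± 0.33 (limma adjusted p = 0.162). Of 41 mitochondrial carriers 10 had a more positive and 0 a more negative response (7 and 0 with median-of-ratios scaling), with slc25a14 next after the pair given above (1.42 ± 0.34, limma adjusted p = 0.138).

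The pyruvate dehydrogenase complex turns pyruvate into acetyl-CoA inside mitochondria. Of 13 tested members, which include its kinases, phosphatases and the pyruvate carrier, 5 had a more positive and 0 a more negative response (3 and 0 with median-of-ratios scaling), with a median of 0.90. Without starved surface replicate 2 the counts were 3 and 0 and the median 0.70. Past the threshold of their own responses, 3 members rose and 2 fell in surface fish, and 7 rose and 2 fell in Pachón cavefish. All these counts pool the complex with its regulators and the carrier, so they do not describe its subunits alone. The subunit pdha1a had 51.2, 71.7 and 59.1 TPM in starved and 57.5, 45.7 and 46.5 TPM in refed surface fish, and 28.8, 55.2 and 43.7 TPM in starved and 100.3, 79.8 and 85.9 TPM in refed Pachón cavefish, a difference of 1.35 ± 0.36 (limma adjusted p = 0.161). The subunit dlat rose in both populations, by 1.50 ± 0.32 and 2.88 ± 0.32, with a difference of 1.37 ± 0.45 (limma adjusted p = 0.196). The carrier subunit mpc1 had a difference of 1.14 ± 0.47 (limma adjusted p = 0.259).

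Fatty acid synthesis had the highest median difference of the 40 lists, 1.71 over 20 tested members of 25, or 1.39 with median-of-ratios scaling. A more positive response at an unadjusted p under 0.05 was found for 7 members and a more negative one for 0 (4 and 0 with median-of-ratios scaling, 6 and 0 without starved surface replicate 2). These 7 include acacb, described further below, which fell after the meal in both populations and fell less in Pachón cavefish. In surface fish 2 members rose and 1 fell past the threshold, and in Pachón cavefish 8 rose and 1 fell. The surface counts and the Pachón falls are near or below the shares of all genes (9.03%, 9.68% and 7.64%), and the Pachón rises are above theirs (22.9%). The mean log2(TPM + 1) over the members was 3.39, 4.52 and 4.32 in starved and 5.30, 4.27 and 4.04 in refed surface libraries, and 3.44, 3.94 and 3.40 in starved and 6.72, 5.59 and 5.67 in refed Pachón libraries. The starved groups overlapped, and all refed Pachón libraries lay above all others.

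ATP citrate lyase aclya, which releases acetyl-CoA from citrate in the cytosol, had the lowest p of the list. Its levels were 2.75, 13.2 and 13 TPM in starved and 31.7, 13.9 and 19.2 TPM in refed surface fish, and 7.45, 6.63 and 4.12 TPM in starved and 498, 194 and 242 TPM in refed Pachón cavefish. Every refed Pachón library had at least 194 TPM and every other library at most 31.7 TPM. The Pachón response was 5.38 ± 0.53 and passed (limma adjusted p = 0.000134), the surface response was 1.24 ± 0.53 and did not (limma adjusted p = 0.127). Their difference of 4.13 ± 0.75 had a 95% interval of 2.48 to 5.78 and missed the threshold (limma adjusted p = 0.0809; called in 3 of 25 alternatives).

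The lipogenic genes fasn, scd and thrsp had differences of similar size to that of aclya, with wider errors. Fatty acid synthase, fasn, had 0.88, 0.79 and 0.95 TPM in starved and 91.5, 14.4 and 10.1 TPM in refed surface fish, and 1.41, 8.33 and 4.15 TPM in starved and 2516, 472 and 812 TPM in refed Pachón cavefish. It rose in both populations, by 3.75 ± 0.80 and 7.66 ± 0.80, and the difference was 3.92 ± 1.13 (limma adjusted p = 0.174). The desaturase scd had 3.89, 29.9 and 30.2 TPM in starved and 856, 548 and 254 TPM in refed surface fish, and 0.36, 19.8 and 2.74 TPM in starved and 7584, 1554 and 1097 TPM in refed Pachón cavefish, with a difference of 4.08 ± 1.50 (limma adjusted p = 0.227). The lipogenic response gene thrsp had 92.1, 355 and 238 TPM in starved and 3033, 260.3 and 51.3 TPM in refed surface fish, and 79.2, 639 and 928 TPM in starved and 25429, 4553 and 6172 TPM in refed Pachón cavefish, with a difference of 3.83 ± 1.90 and a 95% interval of -0.34 to 7.99 (limma adjusted p = 0.338). Refed Pachón replicate 1 was the highest library for aclya, fasn, scd and thrsp, and refed surface replicate 1 the highest of the surface libraries for the same 4 genes. The refed groups did not overlap in fasn, scd or thrsp.

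Acetyl-CoA carboxylase acacb, whose product malonyl-CoA restrains fatty acid entry into mitochondria, fell after the meal in both populations. It had 9.07, 13.2 and 11.8 TPM in starved and 1.21, 0.70 and 0.79 TPM in refed surface fish, and 6.6, 4.58 and 4.2 TPM in starved and 2.67, 1.44 and 1.46 TPM in refed Pachón cavefish, responses of -2.70 ± 0.23 and -1.11 ± 0.23 and a difference of 1.59 ± 0.32 (limma adjusted p = 0.101). Triglyceride synthesis and lipid droplets had 5 more positive and 1 more negative of 24 members (2 and 1 with median-of-ratios scaling), with a median of 0.53. Diacylglycerol acyltransferase dgat1b, which makes triglyceride, had 1.24, 2.24 and 1.42 TPM in starved and 2.26, 1.69 and 2.67 TPM in refed surface fish, and 6.3, 5.23 and 5.17 TPM in starved and 21.6, 19.1 and 21.7 TPM in refed Pachón cavefish. It rose in Pachón cavefish (limma adjusted p = 0.000177), where all libraries lay above those of surface fish, and the difference was 1.44 ± 0.27 (limma adjusted p = 0.0917). The monoglyceride lipase mgll instead fell in surface fish, with a response of -1.73 ± 0.19 (limma adjusted p = 0.000664) from 10.1, 14.8 and 8.73 to 2.99, 2.34 and 2.5 TPM. In Pachón cavefish it went from 1.63, 1.46 and 1.31 to 0.63, 0.91 and 0.88 TPM, and the difference was 1.28 ± 0.27 (limma adjusted p = 0.117). The acyltransferase gpat3, at the first step of glycerolipid synthesis, had a difference of 1.19 ± 0.45 (limma adjusted p = 0.238).

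**Figure D5:**
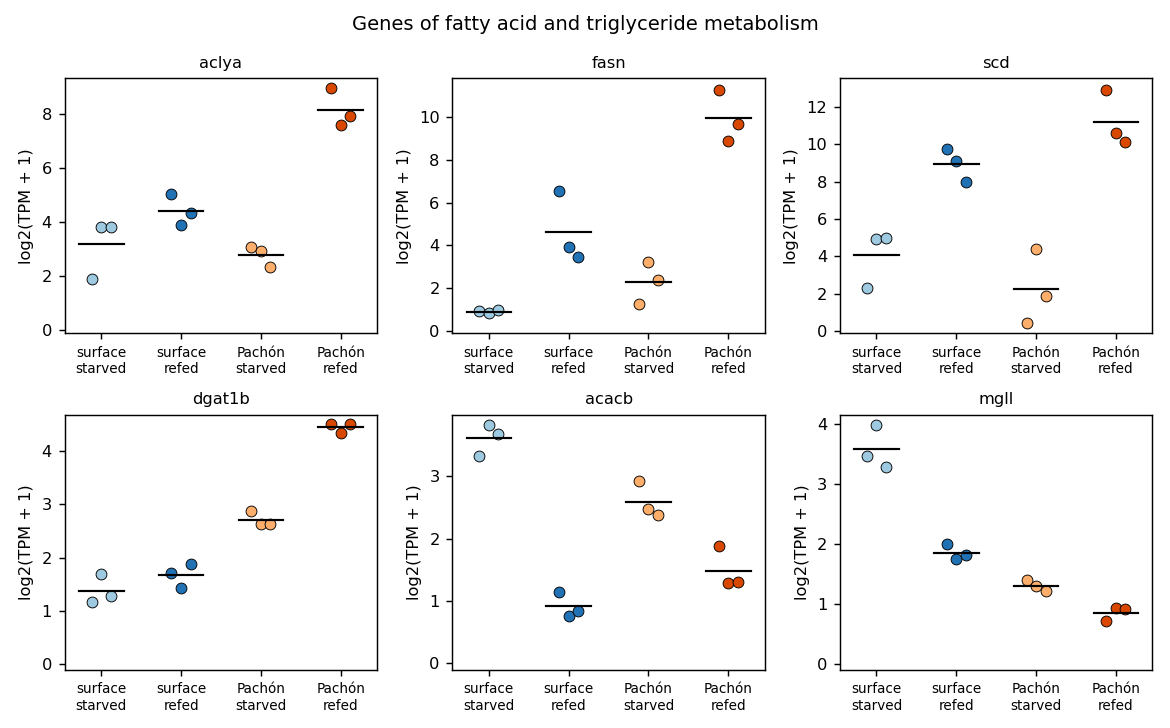
Level of 6 genes of fatty acid and triglyceride metabolism on the log2(TPM + 1) scale (vertical) in the 3 libraries of each group (points), with the group mean as a bar. Refed Pachón libraries are highest for aclya, fasn, scd and dgat1b, while acacb and mgll are highest in starved surface fish.

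Several metabolic genes with a positive difference fell in surface fish and had no called response in Pachón cavefish. The peroxisomal enzyme hsd17b4, which oxidises very long and branched fatty acids, had 345, 266 and 358 TPM in starved and 106, 137 and 99.9 TPM in refed surface fish, and 112, 106 and 87.3 TPM in starved and 126, 103 and 101 TPM in refed Pachón cavefish. Starved surface libraries lay above all 9 others, which overlapped, and the difference was 1.60 ± 0.31 (limma adjusted p = 0.093). Of its list of 37 genes of fatty acid oxidation, 4 had a more positive and 0 a more negative response, below the shares of all genes. The counts were 1 and 0 with median-of-ratios scaling, and 1 and 0 without starved surface replicate 2. The mitochondrial carbonic anhydrase ca5a, which supplies bicarbonate to carboxylases, fell from 36.4, 17.3 and 26.7 to 7.59, 4.47 and 4.96 TPM in surface fish. In Pachón cavefish it had 14, 19.9 and 9.73 TPM when starved and 23.9, 16.6 and 26.4 TPM when refed, and the difference was 2.64 ± 0.47 (limma adjusted p = 0.0809). The glycogen-targeting phosphatase subunit ppp1r3b had 72.7, 112 and 103 TPM in starved and 48.3, 31.6 and 23.4 TPM in refed surface fish, and 50.9, 100.4 and 103 TPM in starved and 109, 88.7 and 130.3 TPM in refed Pachón cavefish, with a fall in surface fish (limma adjusted p = 0.0133) and a difference of 1.90 ± 0.48 (limma adjusted p = 0.153).

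A pair of regulators had the same form. The adaptor grb10b, which restrains the insulin receptor, had 17.8, 19.3 and 5.42 TPM in starved and 5.19, 1.31 and 0.74 TPM in refed surface fish, and 1.87, 4.19 and 4.34 TPM in starved and 4.87, 13.2 and 6.56 TPM in refed Pachón cavefish. It fell in surface fish, with a response of -2.21 ± 0.56 (limma adjusted p = 0.0195), and the difference was 3.20 ± 0.79 (limma adjusted p = 0.142). The list that holds grb10b, insulin, IGF and FoxO, had 3 more positive and 0 more negative of 27 members on both scales. That is 11.1% more positive, against 14.2% of all genes, or 6.21% with median-of-ratios scaling. The list median was 0.12 against 0.29 over all genes, and -0.12 against 0.03 with that scaling. The interferon regulatory factor irf7 had 42.5, 16.8 and 24.4 TPM in starved and 1.74, 1.37 and 2.26 TPM in refed surface fish, and 1.82, 3.88 and 3.8 TPM in starved and 1.56, 0.61 and 1.72 TPM in refed Pachón cavefish. Starved surface libraries stood well above all others, and the irf7 difference was 2.43 ± 0.48 (limma adjusted p = 0.0962).

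Sugar and amino acid metabolism held single genes with large differences, but their shares lay nearer to those of all genes. More positive members made up 15.4% of glycolysis, 19.2% of gluconeogenesis and glycogen and 19.7% of amino acid breakdown, against 14.2% of all genes. With median-of-ratios scaling these shares were 11.5%, 7.69% and 4.55%, against 6.21%. Glycolysis had 4 more positive and 0 more negative of 26 members (3 and 0 with median-of-ratios scaling), among them pfkpa (1.67 ± 0.47), eno3 (1.07 ± 0.34) and pgk1 (1.22 ± 0.41), with limma adjusted p of 0.169, 0.189 and 0.206. Gluconeogenesis and glycogen had 5 and 1 of 26 (2 and 1 with median-of-ratios scaling), and amino acid breakdown 13 and 1 of 66 (3 and 1 with median-of-ratios scaling). Proline dehydrogenase prodha, which starts proline breakdown, had 0.070, 0.050 and 0.080 TPM in starved and 1.04, 0.81 and 1.87 TPM in refed surface fish, and 0.16, 2.84 and 1.95 TPM in starved and 168, 27.1 and 39 TPM in refed Pachón cavefish. It rose in Pachón cavefish by 4.61 ± 0.59 (limma adjusted p = 0.000322), and the difference was 3.56 ± 0.84 (limma adjusted p = 0.135). The surface response was 1.04 ± 0.59 (limma adjusted p = 0.248). Starved surface libraries had at most 0.080 TPM, where the log2(TPM + 1) scale understates a rise, so the size of the prodha difference depends on that scale. The glycine cleavage enzyme gldc had 9.9, 19.9 and 2.33 TPM in starved and 16.7, 9.41 and 24.2 TPM in refed surface fish, and 9.74, 10.3 and 10.5 TPM in starved and 135, 107 and 117 TPM in refed Pachón cavefish, a rise in Pachón cavefish alone past the threshold and a difference of 2.56 ± 0.76 (limma adjusted p = 0.182). Refed Pachón libraries were above all others for both enzymes.

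The list of amino acid synthesis, one-carbon and nucleotide enzymes had 7 more positive and 2 more negative of 38 members (5 and 2 with median-of-ratios scaling). The first step of purine synthesis, ppat, had a difference of 1.52 ± 0.48, the purine enzyme pfas 1.28 ± 0.42 and the pyrimidine enzyme umps 1.58 ± 0.39, with limma adjusted p of 0.189, 0.198 and 0.142. All 3 rose in Pachón cavefish past the threshold and none did in surface fish. Urea cycle, arginine and polyamine genes had 2 more positive and 1 more negative of 19 members (2 and 2 with median-of-ratios scaling). More positive members made up 10.5% on both scales, against 14.2% and 6.21% of all genes. The list median was 0.30, against 0.29 over all genes. In the urea cycle, argininosuccinate lyase asl fell in surface fish from 4.32, 3.09 and 3.24 to 1.45, 1.67 and 1.64 TPM and had 4.8, 5.07 and 4.58 and 6.8, 7.28 and 5.45 TPM in starved and refed Pachón cavefish, with a difference of 1.17 ± 0.23 (limma adjusted p = 0.0962).

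Genes with a more negative response in Pachón cavefish were fewer on the deposited scale. The gene si:ch211-153b23.5, of no stated function, had 43.4, 43.4 and 94.9 TPM in starved and 198, 411 and 488 TPM in refed surface fish, and 21.9, 19 and 13.1 TPM in starved and 12.8, 10.7 and 8.73 TPM in refed Pachón cavefish. It rose in surface fish by 2.58 ± 0.39 (limma adjusted p = 0.00187), with a Pachón response of -0.68 ± 0.39. Its difference of -3.25 ± 0.55 was called with median-of-ratios scaling (adjusted p = 0.0491) and not on the deposited scale (limma adjusted p = 0.0809). Agmatinase agmat, which makes putrescine, rose in surface fish from 32.4, 5.71 and 3.73 to 65, 116 and 47.2 TPM, while Pachón cavefish had 192, 201 and 238 TPM starved and 241, 262 and 255 TPM refed, with a difference of -2.55 ± 0.83 (limma adjusted p = 0.196).

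On the deposited scale the list of early response transcription factors had the most members with a more negative response among the 40 lists. At an unadjusted p under 0.05 4 of 33 had a more negative and 1 a more positive response (7 and 0 with median-of-ratios scaling), with a median of -0.13. The repressor klf11b had 69.5, 139 and 88.7 TPM in starved and 149, 65.4 and 89.9 TPM in refed surface fish, and 84.8, 139.5 and 113 TPM in starved and 18.2, 31.7 and 25.3 TPM in refed Pachón cavefish. It fell in Pachón cavefish, with a response of -2.13 ± 0.36 (limma adjusted p = 0.00128), where refed libraries lay below all others, and the difference was -2.14 ± 0.51 (limma adjusted p = 0.138). Its relative klf11a had 5.32, 3.34 and 7.67 TPM in starved and 23.9, 15.2 and 9.9 TPM in refed surface fish, and 4.69, 7.72 and 5.94 TPM in starved and 6.95, 2.67 and 3.39 TPM in refed Pachón cavefish, a rise in surface fish (limma adjusted p = 0.0252) and a difference of -1.88 ± 0.53 (limma adjusted p = 0.169). The immediate early gene ier2a had a difference of -2.01 ± 0.69 (limma adjusted p = 0.209).

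Complement, coagulation and acute phase proteins, made by hepatocytes for the blood, had a median difference of -0.29 over 53 members, the lowest of the 40 pathway lists with all libraries. Without starved surface replicate 2, the library with the lowest hepatocyte marker sum, the median was -0.11, and cytosolic ribosomal proteins (-0.12) and the unfolded protein response (-0.14) were lower. The median over the tested hepatocyte markers went from -0.36 to -0.08, and the part of these markers in the result was not tested. On the deposited scale 1 had a more positive and 1 a more negative response, the latter being masp1, a protease that activates complement (-0.96 ± 0.38, limma adjusted p = 0.253). With median-of-ratios scaling 9 were more negative and 0 more positive, and without starved surface replicate 2 on the deposited scale 0 and 2. Cell cycle and DNA replication had 4 more positive and 1 more negative of 46 members (2 and 1 with median-of-ratios scaling), with a median of 0.21. The cell cycle factor E2F3 fell in Pachón cavefish from 83.1, 103 and 125 to 24.3, 42.5 and 47.8 TPM, against 18.5, 14.2 and 14.8 and 14.2, 18.1 and 11 TPM in surface fish, with a difference of -1.31 ± 0.41 (limma adjusted p = 0.189). The unfolded protein response had 2 more positive and 1 more negative of 34 members (1 and 2 with median-of-ratios scaling), with a median of 0.50. Its mean log2(TPM + 1) over the members varied widely between surface libraries, at 2.69, 5.14 and 3.41 in starved and 4.41, 4.38 and 6.17 in refed fish. In Pachón libraries it was 3.87, 3.86 and 2.72 in starved and 5.18, 5.25 and 5.02 in refed fish. The endoplasmic reticulum chaperone cofactor dnajb9a rose in surface fish by 2.29 ± 0.39 (limma adjusted p = 0.00325), with a Pachón response of 0.87 ± 0.39 and a difference of -1.42 ± 0.55 (limma adjusted p = 0.244).

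Markers of other cell types also differed between libraries, and in bulk tissue fewer cells of a type and less RNA per cell cannot be told apart. The 10 adipocyte markers, 2 of them at 0 in all libraries, summed to 523 to 1645 TPM in starved and 390.0 to 918 TPM in refed surface fish, and to 215 to 412 TPM in starved and 142 to 354 TPM in refed Pachón cavefish. The 22 macrophage markers, 1 of them at 0 in all libraries, summed to 56.5 to 114 TPM in starved and 33.2 to 617 TPM in refed surface fish, and to 132 to 444 TPM in starved and 82.8 to 159.8 TPM in refed Pachón cavefish. The 22 erythrocyte markers, 1 of them at 0 in all libraries, summed to 1031 to 3060.5 TPM in starved and 1004 to 2063 TPM in refed surface fish, and to 1799.7 to 3169 TPM in starved and 1282 to 1925 TPM in refed Pachón cavefish. Hepatocyte marker sums were 114966 to 241884 TPM in starved and 236416 to 286012 TPM in refed surface fish, against 201079 to 245081 TPM and 198400.0 to 238764 TPM in Pachón cavefish. Of the 18 tested erythrocyte markers 3 had a more negative and 0 a more positive response at an unadjusted p under 0.05. The shares of all genes were 2.31% and 14.2%. With median-of-ratios scaling 3 erythrocyte markers were more negative, against 5.69% of all genes, and without starved surface replicate 2 there were 4. None of the tested adipocyte or macrophage markers had a p that low in either direction. Skeletal muscle markers had 2 more positive of 5 tested, endothelial markers 2 of 16, and intestinal markers 1 more positive and 1 more negative of 10. With median-of-ratios scaling these lists had no more positive member, and without starved surface replicate 2 the more positive members numbered 1, 0 and 1. Summed levels were 25.5 to 35.7 TPM in starved and 43.8 to 68.6 TPM in refed surface fish for the 25 skeletal muscle markers, 3 of them at 0 in all libraries, and 24.5 to 34.3 TPM and 50.9 to 58.3 TPM in Pachón cavefish. The 26 endothelial markers summed to 49.5 to 53.4 TPM and 46.9 to 64.9 TPM in surface fish, and to 53.7 to 58.6 TPM and 61 to 89.7 TPM in Pachón cavefish. The 25 intestinal markers, 2 of them at 0 in all libraries, summed to 792 to 2153 TPM and 962 to 1824 TPM in surface fish, and to 876 to 1141 TPM and 1179 to 2136 TPM in Pachón cavefish. The part of cell makeup in the differences in response was not tested.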

How the data were processed

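Liver RNA-seq libraries, 3 in each of 4 groups, were compared, and grouping followed the sample titles. The values are TPM per gene and library as the authors deposited them. The submitters' processing notes list STAR 2.6.1c, RSEM, Bowtie2 and bcl2fastq 2.18. What each tool did, the genome build, the annotation and whether counting used strand were not given in the sources used here. The RNA was polyA-selected and the libraries stranded, per the labels' protocols. TPM keep neither counts nor depth, so no interval for counting error can be given, and overlapping or near-identical genes may share reads.

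From these values log2(TPM + 1) was fitted with limma 3.58.1 in R 4.3.3 as 4 group means, with a mean-variance trend, 8 residual and 3.303 prior degrees of freedom. The difference in meal response and the responses behind it were contrasts of that fit, and p-values were adjusted by Benjamini and Hochberg over 13157 genes. The steps were checked on simulated data. The members and gene lists were chosen with earlier results of these data known. The naming rule asked for a symbol, a group mean of at least 5 TPM and a call both as deposited and with median-of-ratios scaling, and gave 1 gene. The other named genes are called genes, the 2 genes on each side of the threshold, genes with an unadjusted p under 5e-04, genes with opposite responses and up to 3 members per list, of which the text gives a part. Further genes were set by name whatever their p, namely aclya, fasn, scd, acacb, thrsp, PPARG and gck. Of these, PPARG and gck are not described here. Alternatives changed the pseudocount, filter, scaling, weights, prior and libraries. Same-numbered libraries correlated at -0.25 to 0.12 in their deviations from group means, and the numbers were not taken as pairs.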

Additional observations from a re-analysis of the deposited data

Results flagged for a closer look

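For 9 genes a test of the difference between the 2 meal responses passed. The differences, Pachón cavefish minus surface fish on the log2(TPM + 1) scale, were 2.25 for NEK3, 2.31 for znf326 and 2.30 for triap1. Among genes without a symbol they were 3.97 for ENSAMXG00000039180, 1.55 for ENSAMXG00000043828 and -1.91 for ENSAMXG00000035399, and 2.82, 2.01 and 1.96 for the remaining 3. Of these, ENSAMXG00000039180, ENSAMXG00000043828 and the gene at 2.01 are at or near 0 throughout 1 population, so their values restate the response of the other one. The surface libraries had at most 0.58 TPM of ENSAMXG00000035399 and 0.82 TPM of znf326, and both genes passed the filter through Pachón libraries alone. All had a limma adjusted p of 0.0346 to 0.0434. NEK3 kept its call in 16 of 24 alternatives, more than any other of the 9, and a gene without a symbol kept it in 6 of 25. Levels were low: of the 9, only triap1, ENSAMXG00000039180 and 1 other gene without a symbol exceeded a mean of 10 TPM in any group.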

How the results depend on the processing

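The number of genes with a called difference in meal response, 9 as reported, ranged from 0 to 52 when single libraries were left out, and the number called in opposite directions, 7 as reported, from 2 to 19. For the called differences, the count was 1 with log2(TPM + 0.1), 19 with log2(TPM + 5), 21 without a filter, 0 with a filter of at least 5 TPM in 3 libraries, 18 with quantile normalization, 1 after rescaling without the 20 most abundant genes and 35 with library weights. It was 0 with starved surface replicate 2 and refed Pachón replicate 1 both left out. The replicate block, a fit with the replicate number as a term, also gave 0, with 1865 genes at an unadjusted p under 0.05. The labels do not say whether same-numbered libraries belong together, and a batch shared by them was not tested. Genes in opposite directions numbered 2 with the stricter filter and 18 with library weights. Median-of-ratios scaling, 1 variance per population, no trend and a robust prior gave 13, 9, 8 and 9 called differences. The cause of these changes was not tested.

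For 70 named genes none changed the sign of its difference in any alternative, and 10 of the 61 not called as reported were called in at least 1. These named genes were mostly chosen for a low p of this same difference, so their stable sign is no separate check. Across the alternatives the list median ranged from 0.68 to 1.15 for ribosome biogenesis and from 1.05 to 1.86 for fatty acid synthesis. Other lists had medians on both sides of 0. Among them were cholesterol synthesis and uptake (-0.22 to 1.37), the unfolded protein response (-0.14 to 1.00) and translation factors (-0.09 to 0.35).

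TPM hold no depth, so precision of low genes, which include most called ones, cannot be judged beyond the spread of 3 libraries.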
